A study of Arabidopsis thaliana with 12 samples.

Results

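The genes described here are NAC transcription factor genes, taken by symbol: NAC or ANAC followed by a number, on a probe set annotated to exactly 1 gene. A single gene met this rule, NAC014 (AT1G33060), out of 13355 genes with such a probe set, and it has 1 such probe set. The RefSeq gene table lists 81 genes with a symbol of this form, and the other 80 have no probe set named for them alone in the annotation used here, so they were not analysed here. A list of 40 NAC family loci, 20 of which are outside those 81, added no named probe set. The family as a whole is therefore not described, and the values below are those of NAC014.

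NAC proteins form one of the large plant-specific families of DNA-binding regulators, named after the petunia gene NAM and the Arabidopsis genes ATAF and CUC. A conserved NAC domain at the N-terminus binds DNA and pairs the proteins into dimers, and the variable C-terminal part regulates transcription. Members are known for setting organ boundaries, for switching on secondary walls in xylem, for leaf senescence and for responses to drought, cold and wounding.

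NAC014 encodes a NAC protein of the kind that carries a membrane-spanning stretch at its C-terminus. Such NAC proteins are known to be held at membranes and to reach the nucleus after being cut free, so their activity need not follow their transcript level. The arrays measured the transcript only.

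Each sample was hybridised to its own Affymetrix ATH1 array in 1 colour, and the samples form 4 groups of 3 samples of Arabidopsis thaliana. The groups were mature rosette leaves of plants carrying the lug-3 mutation and mature rosette leaves of wild-type (WT) plants, both at growth stage 3.90, and flowers of lug-3 plants and flowers of wild-type plants, both at growth stage 6.90. All plants had the Landsberg erecta background (Ler-0), which itself carries a mutation in the receptor kinase gene ERECTA, and a pool of 20 plants stood behind each sample. All were grown in constant light at 20 °C after 4 days of cold, and separate growth of the 3 pools of a group is not stated. The p-values therefore cover the spread among these pools alone, and that spread may be technical. LEUNIG (LUG) is the gene mutated in lug-3. Its product is a corepressor of transcription that holds back the floral organ identity gene AGAMOUS (AG) in the outer whorls. The title of the series names targets regulated by LUG as its subject. LUG itself has no named probe set and gives no check of the genotype labels.

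Whole-array checks bear on NAC014 as follows. The extraction protocol speaks of rosette leaves for all samples, while the tissue labels name flowers for 6 of them, and marker genes separated the tissues as labelled. The summed signal of the tapetum markers A9, EXL5 and ATA27, genes of the anther layer that feeds the pollen, was 470 to 636 in lug-3 flowers and 1323 to 2042 in WT flowers, against 24.1 to 26.3 in lug-3 leaves and 10.8 to 21.8 in WT leaves. The summed signal of the green tissue markers RCA and LHCB4.2 was 2889 to 3965 in lug-3 flowers and 2632 to 3128 in WT flowers, against 6069 to 6959 in lug-3 leaves and 6032 to 7528 in WT leaves. No marker was listed at 0 on any array. The median signal of all probe sets was 48.8 to 52.6 for the flower samples, against 38.3 to 41.0 for the leaf samples, although every array as deposited has the same trimmed mean. Within a group, pairs of arrays had a Spearman rho of 0.954 to 0.986 across probe sets, which are not independent replicates. These are whole organs, in which fewer cells of a type and less RNA per cell cannot be told apart.

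NAC014 was measured in the middle of the signal range on every array. Its signal lay above 16.4, the pooled 30th percentile used as the lower limit for testing, on all 12 arrays. Averaged over the arrays, its signal exceeded that of 47.5% of probe sets.

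In rosette leaves the NAC014 transcript was lower in lug-3 plants. Its signal was 41.7, 26.9 and 31.8 in lug-3 leaves and 68.2, 63.2 and 73.4 in WT leaves. Every lug-3 leaf array lay below every WT leaf array, with a gap of 21.4 signal units between the highest lug-3 and the lowest WT value. The means were 33.5 ± 7.55 in lug-3 leaves and 68.3 ± 5.11 in WT leaves (SD, n = 3 each), a ratio of 0.490. On the log2(signal + 8) scale, which understates changes of genes with low signal, the change was -0.89 (SE 0.18, 95% interval -1.29 to -0.49), with an adjusted p of 0.00547 in limma. The exact two-sided permutation test on the signal alone gave p = 0.1, and no smaller p can be reached with 3 arrays in each group. In the same comparison 22.3% of the 17877 probe sets tested were called (adjusted p below 0.05) in either direction, with 11.3% higher and 11.0% lower in lug-3, so a call of this kind was common. Non-overlapping groups with lug-3 lower were seen for 18.6% of tested probe sets. The size of the fall was less common: 2.81% of tested probe sets had a more negative change and 6.98% a larger change in either direction. The median over all tested probe sets was -0.01.

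The rank of NAC014 within each array gave the same picture without any scaling between arrays. NAC014 stood at the 50.4, 41.9 and 46.1 percentile of probe sets on the lug-3 leaf arrays and at the 62.6, 60.4 and 63.5 percentile on the WT leaf arrays. The ranks of these groups did not overlap either. In flowers the percentiles were 48.7, 38.8 and 50.5 in lug-3 and 39.5, 42.7 and 42.9 in WT, with overlap.

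**Figure D1:**
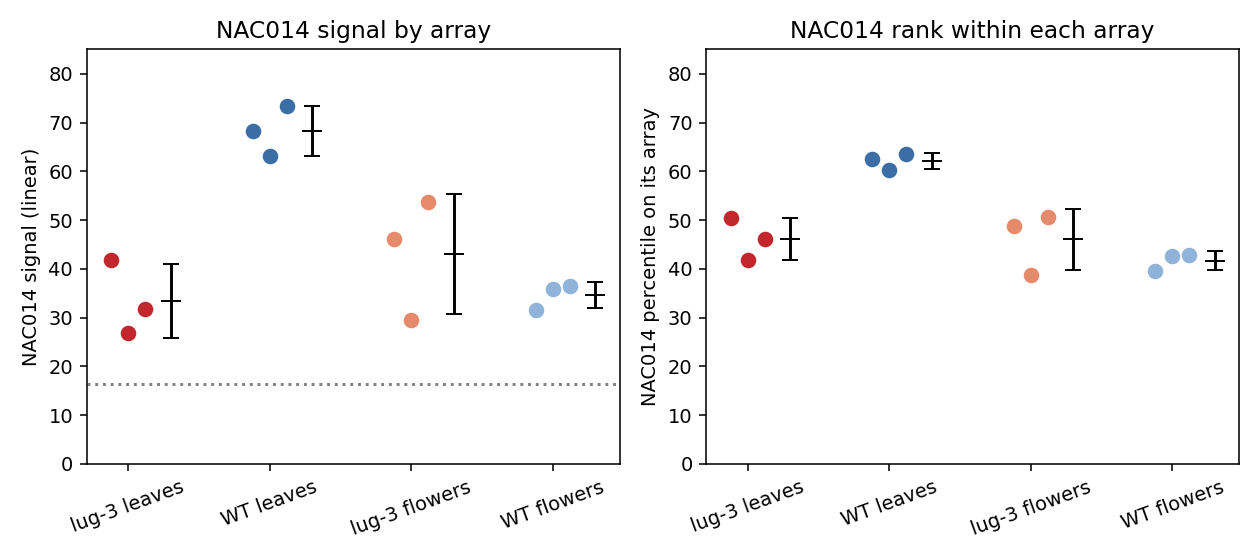
The left panel plots the linear NAC014 signal of each array as a point, with the group mean and SD as a black bar and the testing limit of 16.4 as a dotted line, and the right panel plots the percentile of NAC014 among the probe sets of the same array. The 3 WT leaf arrays (63.2 to 73.4) stand above all other arrays (26.9 to 53.7) in signal and also in rank.

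In flowers no difference in NAC014 was detected between the genotypes. The signal was 46.1, 29.4 and 53.7 in lug-3 flowers and 31.6, 35.8 and 36.6 in WT flowers. The groups overlapped: lug-3 flowers 2 lay below all WT flower arrays, and the other two lug-3 arrays lay above them. The means were 43.1 ± 12.4 in lug-3 flowers and 34.7 ± 2.71 in WT flowers (SD, n = 3 each). The log2 change was 0.23 (SE 0.18, 95% interval -0.17 to 0.63, limma adjusted p = 0.478), so a rise of up to 0.63 or a fall of up to 0.17 on this scale was within the error. The exact permutation test gave p = 0.4. Calls in this comparison covered 12.0% of tested probe sets, made up of 5.27% higher and 6.75% lower in lug-3 flowers. The value rested on single arrays, as it was 0.44 (adjusted p = 0.144) without lug-3 flowers 2 and 0.08 (adjusted p = 0.862) without lug-3 flowers 3.

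Lug-3 flowers had lower signals of pollen, tapetum and seed coat markers than WT flowers at the same time. The summed signal of the 4 pollen markers (PLIM2a, PLIM2b, MGH3 and ACT12) was 130 to 215 in lug-3 flowers and 483 to 642 in WT flowers. All 4 passed the test, as did the 3 tapetum markers with a named probe set, of 7 listed. The summed signal of BAN and INO, genes of the seed coat and of the ovule, was 41.9 to 45.4 in lug-3 flowers and 308 to 428 in WT flowers, and both passed. Most of that difference was BAN, with means of 4.80 in lug-3 flowers and 295 in WT flowers (log2 change -4.56). INO averaged 39.4 in lug-3 flowers and 69.4 in WT flowers (log2 change -0.71). Of all tested probe sets, 6.75% were called lower in lug-3 flowers. In leaves the pollen marker sum was 39.3 to 49.5 in lug-3 and 65.5 to 80.6 in WT, with PLIM2b the only one of the 4 called. The green tissue sums overlapped between the leaf groups, with changes of opposite sign in the 2 markers. LHCB4.2, a light-harvesting protein gene, averaged 1843 ± 110 in lug-3 leaves and 1177 ± 139 in WT leaves (SD, n = 3 each). The log2 change was 0.65 (limma adjusted p = 0.0296). That call was lost without lug-3 leaves 2 or 3 or WT leaves 1 or 3 (adjusted p up to 0.0935). It was also lost with the GAPDH covariate (0.61, adjusted p = 0.131). Without the 3 arrays of highest GAPDH ratio the change was 0.80. RCA, the Rubisco activase gene, had a change of -0.25 that did not pass (adjusted p = 0.253). The part of organ composition in the NAC014 values was not tested.

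The difference between the tissues was tested directly. The lug-3 change of NAC014 was more positive in flowers than in leaves by 1.12 on the log2 scale (SE 0.26, 95% interval 0.56 to 1.69, limma adjusted p = 0.0100). In this test 23.0% of probe sets were called, and those more positive in flowers made up 11.5% of all tested. Of the 1973 probe sets called lower in lug-3 leaves, 1080 (54.7%) had, like NAC014, a significantly more positive change in flowers and no call in flowers. These tests use the same leaf arrays, so the share is a description of how common the pattern was. Growth stage went with tissue and cannot be told apart from it. In both checks on RNA quality the value was of similar size with a larger error and missed the threshold. It was 0.98 (SE 0.34, adjusted p = 0.0719) with the GAPDH ratio, described next, as a covariate and 0.97 (SE 0.32, adjusted p = 0.0600) without the 3 arrays of highest ratio.

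**Figure D2:**
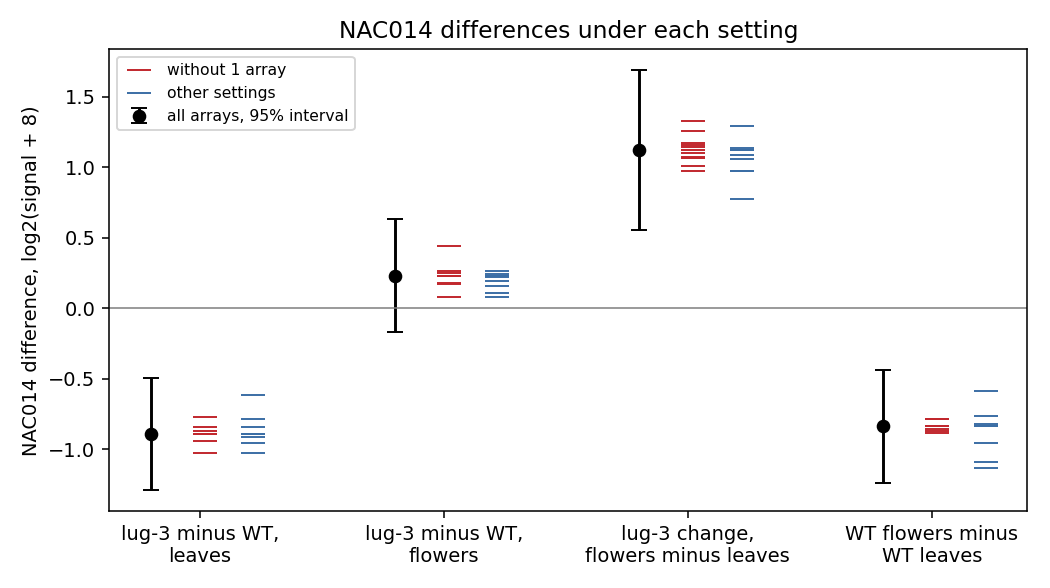
Differences of NAC014 on the log2(signal + 8) scale for 4 comparisons, where black points with bars are the values from all arrays with their 95% intervals (-1.29 to -0.49 in leaves, -0.17 to 0.63 in flowers), red dashes the values without 1 array each and blue dashes the values under the other settings. Every dash lies on the same side of 0 as its black point, and settings that cannot alter a value give dashes level with it.

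A measure of RNA degradation was lower in lug-3 leaves than in WT leaves. The GAPDH control ratio (signal of the 3' probe set over that of the 5' probe set), which rises as RNA is degraded, was 1.47, 1.68 and 1.58 in lug-3 leaves and 1.71, 2.83 and 3.44 in WT leaves, without overlap (exact two-sided permutation p = 0.1). WT leaves 1, whose ratio of 1.71 was close to those of the lug-3 leaf arrays, had a NAC014 signal of 68.2, about that of the other WT leaf arrays. Across probe sets it was the array least like others of its group, with a Spearman rho of 0.954 and 0.955 to WT leaves 2 and 3. It also had the lowest of the array weights (0.342). With the log2 ratio as a covariate the leaf change of NAC014 was -0.79 (limma adjusted p = 0.0499), close to the threshold of 0.05. Without the 3 arrays of highest ratio (WT leaves 2 and 3 and lug-3 flowers 3) it was -0.89 (adjusted p = 0.0395), with WT leaves 1 alone standing for WT and assumed to vary like the other groups. In flowers the ratio was 1.65, 2.02 and 3.10 in lug-3 and 1.63, 1.78 and 2.07 in WT, and the lug-3 array of highest ratio was also that of highest NAC014 signal.

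**Figure D3:**
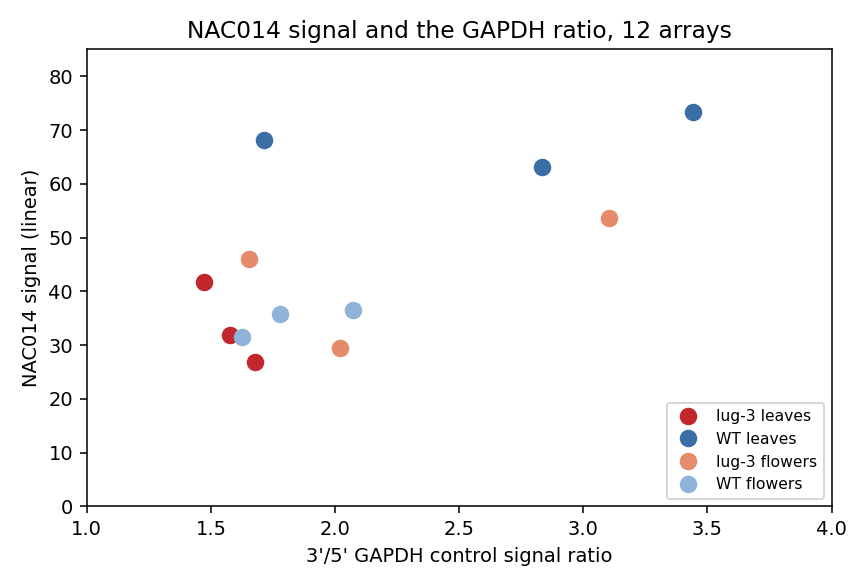
Each point is 1 array, with the 3'/5' GAPDH ratio on the horizontal axis and the linear NAC014 signal on the vertical axis, coloured by group. WT leaves 3 has both the highest ratio (3.44) and the highest signal (73.4). Outside WT leaves, lug-3 flowers 3 has the highest ratio (3.10) and the highest signal (53.7). WT leaves 1, at a ratio of 1.71, has a signal of 68.2, above all lug-3 leaf arrays (26.9 to 41.7).

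Between wild-type organs, NAC014 was lower in flowers than in leaves. The signal of 31.6 to 36.6 in WT flowers lay below that of 63.2 to 73.4 in WT leaves on every array, as for 28.8% of tested probe sets, and the means had a ratio of 0.508. The log2 difference was -0.84 (SE 0.18, 95% interval -1.24 to -0.44, limma adjusted p = 0.00180), among 59.2% of probe sets called between these organs and 26.2% called lower in flowers. The median over all tested probe sets was 0.06. The scaling of the arrays matters for this comparison: 5897 probe sets were higher and 4685 lower in flowers, but 4121 higher and 7228 lower after each array was centred on its median. With that centring the median over all probe sets was -0.24 and NAC014 stood at -1.14 (limma adjusted p = 0.000111). The centring shifts every probe set of an array alike, so the distance of NAC014 from the median could not change. This comparison and that of lug-3 with WT leaves share the 3 WT leaf arrays, so their similar values, -0.84 and -0.89, are not independent of each other.

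Between lug-3 organs the difference was 0.28 (SE 0.18, 95% interval -0.12 to 0.68, limma adjusted p = 0.216), with 43.1 ± 12.4 in flowers and 33.5 ± 7.55 in leaves and overlapping arrays, while 51.1% of probe sets were called in this comparison. Across the 4 groups the mean signal was highest in WT leaves (68.3), followed by lug-3 flowers (43.1), WT flowers (34.7) and lug-3 leaves (33.5). WT leaves did not overlap with any other group. Neighbours among the lower groups, lug-3 flowers with WT flowers and WT flowers with lug-3 leaves, overlapped (exact permutation p = 0.4 and p = 1 on the signal). The lug-3 arrays also spread more widely: the coefficient of variation of the signal was 22.5% in lug-3 leaves and 7.49% in WT leaves, and 28.8% in lug-3 flowers and 7.83% in WT flowers, a difference that was not tested.

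**Figure D4:**
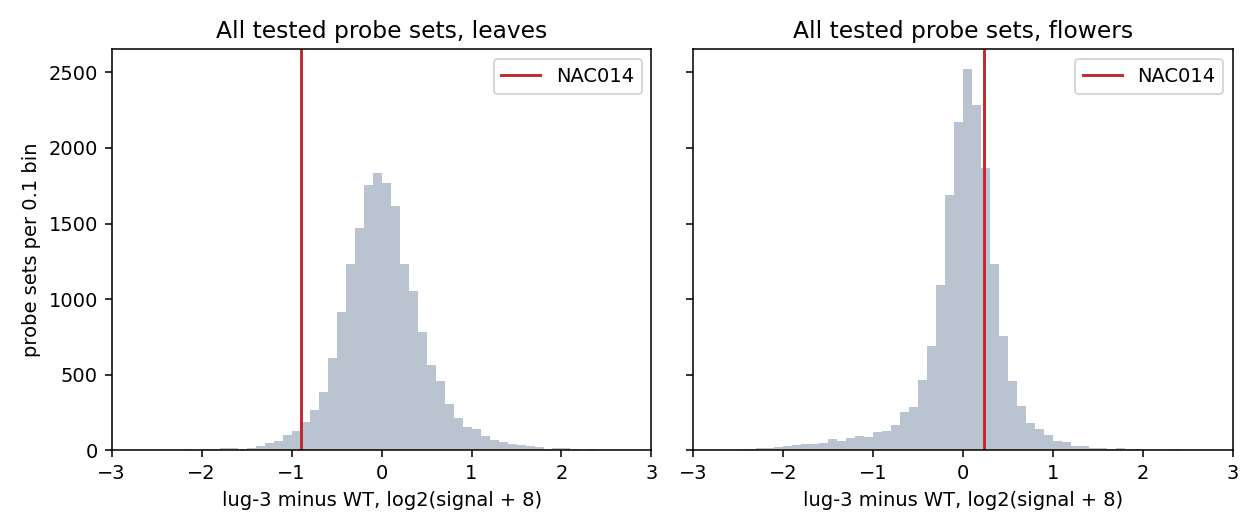
Histograms of the lug-3 minus WT change of all 17877 tested probe sets on the log2(signal + 8) scale, in leaves on the left and flowers on the right, with NAC014 as a red line and the far tails beyond the axis not shown. NAC014 (-0.89) stands in the lower tail in leaves and near the centre in flowers (0.23).

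Genes beside NAC014 on chromosome 1 were looked at because the gene table gives their order, a choice made after the values had been seen. Of the 10 protein-coding genes nearest to NAC014, 5 on each side, 5 are named on the array and 3 passed the filter for testing. The second gene before NAC014, AT1G33050, had a signal of 72.4, 84.1 and 81.6 in lug-3 leaves and 162, 144 and 149 in WT leaves, a fall of similar size without overlap (log2 change -0.87, SE 0.15, limma adjusted p = 0.00193). Its flower signals overlapped, at 85.4, 78.5 and 71.0 in lug-3 and 81.6, 79.5 and 54.2 in WT (log2 change 0.13, adjusted p = 0.642). AT1G33030, the fourth gene before NAC014, fell in lug-3 leaves as well (log2 change -0.91, adjusted p = 0.00305), with a mean of 54.9 in lug-3 leaves and 110 in WT leaves. AT1G33080, the second gene after NAC014, had a leaf change of -0.31 that did not pass (adjusted p = 0.158). So 2 of 3 tested neighbours were called lower in lug-3 leaves, where 11.0% of all tested probe sets were. None of the 3 was called in flowers by limma, nor did any reach an unadjusted p under 0.05 there. AT1G33030 averaged only 8.69 in lug-3 flowers and 13.1 in WT flowers (log2 change -0.31, limma adjusted p = 0.268). These means lay under the testing limit of 16.4, where the log2 scale understates changes. Its flower comparison therefore cannot decide whether its fall was limited to leaves.

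The genes whose pattern was most like that of NAC014 were ranked by the root mean square difference of log2(signal + 8), each gene centred on its own mean of the 12 arrays, over 10012 tested probe sets with 1 gene. This measure was chosen after the data were seen, and the ranking is a description. The closest was PWD, the phosphoglucan, water dikinase gene of starch breakdown, with a root mean square difference of 0.148, against an SD of NAC014 itself of 0.403. Its mean signal was 294 in lug-3 leaves and 526 in WT leaves, and 331 in lug-3 flowers and 268 in WT flowers. The next were AT4G01897 (0.161), AT5G58375 (0.169), AT5G62200 (0.169) and GT-1, a trihelix transcription factor gene (0.171). GT-1 averaged 44.9 in lug-3 leaves and 75.9 in WT leaves, and 59.6 in lug-3 flowers and 44.4 in WT flowers. The neighbour AT1G33050 ranked 378 by the same measure, at 0.302. With Pearson correlation in place of this measure, PWD, AT4G01897, AT5G58375 and GT-1 were again among the first 5 (r = 0.919 to 0.931 over 12 arrays that share groups), and AT1G04300 took the place of AT5G62200.

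**Figure D5:**
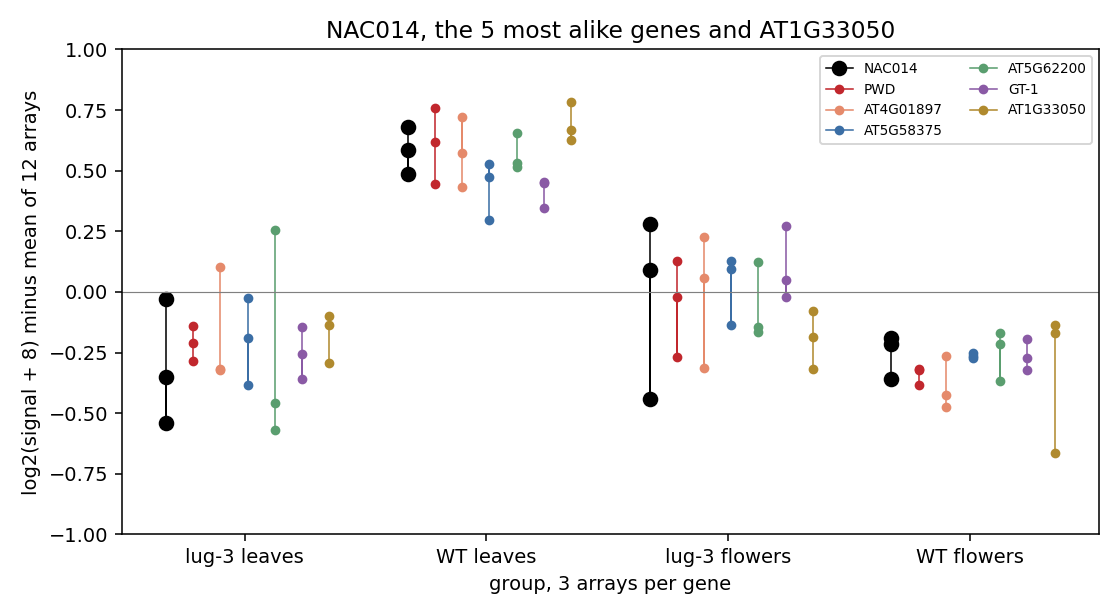
Log2(signal + 8) of each array minus the gene's own mean of 12 arrays, for NAC014 (black, large points), the 5 most alike genes and the neighbour AT1G33050, with a line joining the 3 arrays of a group. All 7 genes are highest in WT leaves, and NAC014 spreads most widely in lug-3 flowers. The 5 most alike genes were picked on these same arrays, so their height in WT leaves follows from the choice. AT1G33050 was added after its values were seen.

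Other genes of processes in which NAC factors are known to act, and of the LUG complex, were taken from 6 lists, with 15 tested genes in all. In leaves 4 of the 15 passed, 1 of them up and 3 down in lug-3, or 26.7% against 22.3% of all tested probe sets. In flowers 3 passed, 2 up and 1 down, or 20.0% against 12.0%. Whether NAC014 acts on any of them was not tested.

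SEU encodes SEUSS, the adaptor that joins LUG to DNA-binding proteins, and was the only tested gene of the 4 in the LUG complex list. Its signal was 123, 119 and 117 in lug-3 leaves and 154, 149 and 155 in WT leaves, a small fall without overlap (log2 change -0.33, limma adjusted p = 0.0270). That call was lost without lug-3 leaves 2, lug-3 leaves 3 or WT leaves 3 (adjusted p up to 0.0843), while the change stayed between -0.35 and -0.31 with any 1 array left out. With the GAPDH covariate the change was -0.36 (adjusted p = 0.0624). In flowers the change was 0.06 (adjusted p = 0.754).

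Of 17 genes of leaf senescence and chlorophyll breakdown, a process that several NAC factors promote, 5 were tested. WRKY6, a senescence-associated transcription factor gene, was the only one called in leaves (log2 change -0.99, limma adjusted p = 0.0449), with a median of -0.31 over the 5. Its call was lost without any single array other than WT leaves 2 (adjusted p up to 0.130), and the change was -0.52 without WT leaves 1 and -1.32 without WT leaves 2. It was -1.68 (adjusted p = 0.00471) with the GAPDH covariate and -1.93 (adjusted p = 0.00150) without the 3 arrays of highest ratio. WRKY53, another regulator of senescence, was the only one called in flowers (1.75, adjusted p = 0.0365), with a median of 0.06. Its call was lost without lug-3 flowers 1 or 2 or without any of the 3 WT flower arrays (adjusted p up to 0.118). With the GAPDH covariate the WRKY53 flower change was 2.18 (limma adjusted p = 0.00106), and without the 3 arrays of highest ratio 2.01. In leaves its change was 0.09 (adjusted p = 0.916). That leaf change was -1.05 with the covariate (adjusted p = 0.0871) and -1.24 without those 3 arrays. SAG101 had changes of -0.31 in leaves and 0.65 in flowers (adjusted p = 0.501 and 0.192), and the chlorophyll b reductase gene NOL of -0.28 and 0.06 (adjusted p = 0.385 and 0.898).

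Among 14 genes of abscisic acid, drought and cold response 4 were tested. In lug-3 leaves the chloroplast protection gene COR15A rose by 1.48 (limma adjusted p = 0.00386) and the dehydrin gene COR47 fell by 0.82 (adjusted p = 0.0286). The COR47 call was lost without lug-3 leaves 1 or 3 or WT leaves 1 or 3 (adjusted p up to 0.0873). The change was -1.27 (adjusted p = 0.00754) with the GAPDH covariate and -1.24 (adjusted p = 0.00260) without the 3 arrays of highest ratio. In lug-3 flowers the dehydrin gene LTI30 rose by 2.33 (adjusted p = 0.00184), the only call of the 4. BSMT1, a methyltransferase gene of salicylate and benzoate, had changes of 1.35 in leaves and 1.95 in flowers that did not pass (adjusted p = 0.255 and 0.148).

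Of 5 genes of the mitochondrial stress response, which other membrane-bound NAC factors are known to switch on, 3 were tested. AT5G09570, listed as AT12CYS, fell in lug-3 flowers by 1.09 (limma adjusted p = 0.00282), with means of 55.4 ± 11.6 in lug-3 flowers and 126 ± 10.6 in WT flowers (SD, n = 3 each). It had a change of -0.49 in leaves (adjusted p = 0.0826), the only one of the 3 at an unadjusted p under 0.05 there, and none was called in leaves. NDB2, an alternative NADH dehydrogenase gene, had changes of -0.20 in leaves and 0.13 in flowers, and UPOX (AT2G21640) of -0.11 and 0.06, none of which passed (adjusted p of 0.421 or more). The xylan synthesis gene IRX10, the only tested gene of 18 for secondary walls and xylem, had changes of -0.12 in leaves and 0.10 in flowers. LAS, the only tested gene of 4 for organ boundaries and meristems, had changes of -0.24 and -0.34. Neither of them was called by limma or reached an unadjusted p under 0.05 in leaves or flowers.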

How the data were processed

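Values were used as deposited: MAS5-type intensity per probe set on the linear scale, named signal here. The authors' software was MAS5 and GCOS, per the submitters' processing notes, with versions not given in the sources used here. Each array had the same mean after trimming 2% of its 22810 probe sets at each end, and no further scaling was applied. Control probe sets (64) were removed. GEO's platform annotation, as used here, gives 1 gene for 13513 of the remaining 22746 and more than 1 for 503, and does not name 8730. Symbols were updated through Entrez IDs with a RefSeq gene table (TAIR10.1, 13436 matched). Both the annotation's and the updated symbols gave the same single member.

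The scale of analysis was log2(signal + 8), the pseudocount being the 20th percentile, rounded. Testing required a signal over 16.4 (the 30th percentile of all arrays) in 3 or more samples, met by 17877 probe sets. In limma 3.58.1 (R 4.3.3), 1 model with a mean for each of the 4 groups used the 12 arrays together (lmFit, contrasts.fit, eBayes), with Benjamini-Hochberg adjustment over all probe sets tested and a threshold of 0.05. The script was tested on simulated data. Exact permutation tests used SciPy 1.17.1. Precision is limited by 3 arrays per group. The rule for named genes covers every member, with signals per array where a lug-3 comparison or the interaction was called, and up to 4 genes of each list by smallest p; neighbours and most alike genes were added after their values were seen. The member rule and the lists were chosen with earlier results of these data known. Alternatives varied the pseudocount, filter, scaling, replicate block, array weights, eBayes options, arrays included and RNA quality. No sequence is printed.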

Additional observations from a re-analysis of the deposited data

Results flagged for a closer look

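The lug-3 change of NAC014 differed between flowers and leaves in a test of the difference itself (1.12 on the log2 scale, limma adjusted p = 0.0100). The changes behind it were 0.23 in flowers, where the arrays overlapped, and -0.89 in leaves, where they did not. The GAPDH ratio also did not overlap between the leaf groups. With that ratio as a covariate the difference was 0.98 with an SE of 0.34, against an SE of 0.26 without it, and missed the threshold (adjusted p = 0.0719).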

How the results depend on the processing

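The leaf change of NAC014 was negative and called under all 23 alternatives run (log2 change -1.03 to -0.62, adjusted p up to 0.0499, with the GAPDH covariate), and the difference between WT flowers and WT leaves under all 22 (-1.14 to -0.59). The flower change was positive and called under none of 23 (0.08 to 0.44). Some alternatives could not alter these values. They were the filter, the replicate block, the eBayes options, the arrays of 1 tissue alone, and leaving out an array of a group not compared. Under them only the error and the adjusted p could differ. Leaving out each array in turn gave -1.03 to -0.78 in leaves, 0.08 to 0.44 in flowers, -0.89 to -0.78 between WT organs and 0.97 to 1.33 for the difference between the lug-3 changes, with no change of call. That difference was called under 20 of 22 alternatives and missed the threshold under 2. It was 0.98 after adding the GAPDH covariate (limma adjusted p = 0.0719) and 0.97 without the 3 arrays of highest ratio. The second used fewer arrays, and why either missed the threshold was not tested. A pseudocount of 32 gave the smallest leaf change (-0.62) and median centring the largest WT organ difference (-1.14); the median WT organ difference of all probe sets was -0.09 with quantile normalization and -0.24 with median centring. The number of probe sets called was 3993 in leaves (1950 from leaf arrays alone, up to 4388 with the trend and robust options), 2150 in flowers (1151 without WT flowers 1, 5059 with array weights) and 4110 for the difference (2987 with the GAPDH covariate, 5633 with array weights). The replicate numbers are not said to pair the samples. Of the 18 correlations between same-numbered arrays of different groups, 3 exceeded 0.1 (-0.11 to 0.18), which cannot decide whether they do. With the replicate block the leaf change was -0.89 (limma adjusted p = 0.00543), a value that a block cannot alter in this balanced design. No call of NAC014 changed with the block. Averaging over probe sets of a gene had no effect to show, because NAC014 has 1 named probe set.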
